A study of Arabidopsis thaliana with 12 samples.

Results

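The comparison set the shoot mRNA of *Arabidopsis thaliana* seedlings grown with a high boron supply (500 µM boric acid, the group Bplus) against that of seedlings grown with a low supply (0.3 µM, the group Bminus). All genes of the RNA count table entered it: 18403 of 27655 genes passed the filter on low counts and were tested, and the other 9252 were not. It used 4 of the 12 libraries of the study, with the 2 RNA libraries of the intermediate group Ctrl (30 µM) in the same fit, where they lent their spread to the error estimate. All plants were wild type, ecotype Col-0, and 14 days old. They had grown on sterile MGRL medium, a defined plant nutrient medium, set with gellan gum and supplemented with sucrose. Each replicate pooled the whole shoots of about 300 seedlings, and each group had 2 biological replicates per the series' design text. No label ties a plant or plate to more than 1 library. The study measured ribosome footprints and mRNA at the same 3 supplies to ask how boron affects translation, and the contrast of the extremes in mRNA is described here.

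Boron enters plants as boric acid, through channels of the NIP family, and leaves cells through the BOR borate exporters. In the cell wall, borate cross-links pairs of rhamnogalacturonan II (RG-II), a side-branched pectin, and the cross-link is needed for normal wall strength and leaf expansion. Too little boron therefore weakens growing walls, and too much is toxic and injures leaf margins.

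The 6 RNA libraries held 7563365 to 9256564 counts. Log2 CPM (counts relative to the library total, scaled by the trimmed mean of M values) correlated across genes at 0.991 between the low-boron libraries, 0.986 in Ctrl and 0.987 between the high-boron libraries. The first principal component held 70.2% of the variance. On it the low-boron libraries lay at -56.2 and -59.6, Ctrl at 13.6 and 14.6, and the high-boron libraries at 40.0 and 47.7. None of 10 root marker genes had enough counts for a test (0 to 11 counts per library), and the 4 mesophyll markers summed to between 21635 and 30895 CPM per library.

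Between high and low boron 7799 genes were called at an adjusted p under 0.05, or 42.4% of those tested. Of these, 3553 were higher at high boron (19.3%) and 4246 lower (23.1%). Differences of 2-fold or more leaned further downward, with 631 genes higher (3.43%) and 1403 lower (7.62%). Among the 198 genes whose mean level was at least 9 in log2 CPM, calls of any size leaned upward, with 107 higher and 46 lower. At 2-fold or more, 3 of these genes were higher and 9 lower. All log2 differences given here are high minus low boron ± SE, and their adjusted p is that of edgeR's quasi-likelihood test with Benjamini-Hochberg adjustment over all 18403 genes, with 2 libraries per group.

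**Figure D1:**
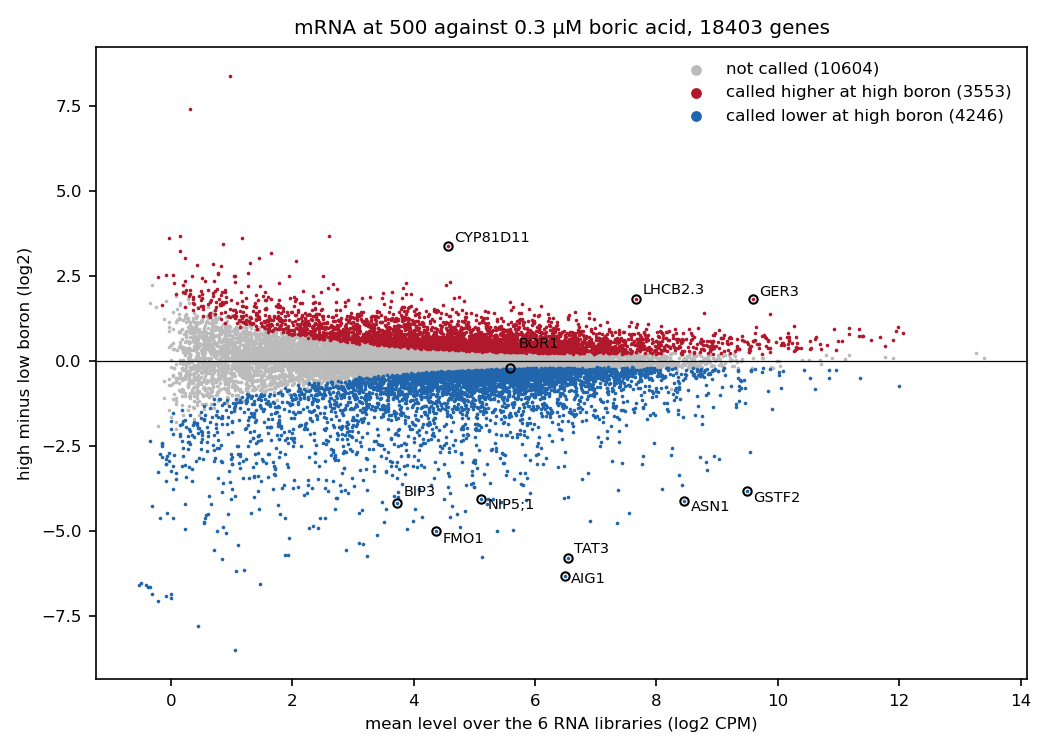
The log2 difference, high minus low boron (vertical axis), is plotted against the mean level over the 6 RNA libraries in log2 CPM (horizontal axis), with 1 point per gene and colours for the call. The 1403 genes at least 2-fold lower spread further from 0 than the 631 at least 2-fold higher, and the labelled genes are described in the text.

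Of the 11 boron transport genes 6 were tested, and NIP5;1 had by far the largest difference. NIP5;1 (AT4G10380), the boric acid channel known for taking up boron when it is scarce, stood at 91.3 and 83.2 CPM at low boron, 10.6 and 11.5 in Ctrl and 5.39 and 4.98 at high boron. Its level was lower with each step of supply, the groups did not overlap, and the log2 difference was -4.07 ± 0.13, adjusted p = 3.09e-11. BOR1 (AT2G47160), an exporter that loads boron into the xylem, stood at 52.4 and 48.9 CPM at low boron, 45.7 and 52.7 in Ctrl and 42.0 and 44.5 at high boron. The Ctrl libraries spanned the low-boron pair, the high-boron pair lay just below it, and the difference was not called (-0.23 ± 0.10, adjusted p = 0.0817). NIP6;1 (AT1G80760), a boric acid channel of young shoot tissue, had 15.3 and 11.8 CPM at low boron, 9.96 and 11.1 in Ctrl and 15.5 and 17.0 at high boron, and its difference of 0.27 ± 0.16 was not called (adjusted p = 0.210). It was 0.46 without low-boron library 2 and 0.09 without low-boron library 3. BOR2 (AT3G62270), a close relative of BOR1 known from root wall boron, likewise missed the threshold (0.37 ± 0.19, adjusted p = 0.142), at 0.57 without low-boron library 2 and 0.20 without low-boron library 3 or high-boron library 3. Both high-boron libraries of NIP6;1 and of BOR2 lay above both low-boron ones. AT3G06450 was slightly lower at high boron (-0.35 ± 0.08, adjusted p = 0.00390), but not when low-boron library 2 was left out (adjusted p = 0.0609). BOR5 (AT1G74810) was higher (0.77 ± 0.27, adjusted p = 0.0341), which DESeq2 did not call and which was lost without either low-boron library or high-boron library 2. Of the 5 untested genes, NIP7;1 had 0 to 4 counts per library, AT4G32510 0 to 5, and BOR4, AT5G25430 and TIP5;1 had 0 in all 6.

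Genes that make pectin were more often lower than higher at high boron: 8 of 18 tested members of the pectin and RG-II list were lower, 1 was higher, and the median log2 difference was -0.21, against -0.0035 over all genes tested. The strongest differences were in RGXT genes, which encode the xylosyltransferases known to build a side chain of RG-II. RGXT3 (AT1G56550) had 13.0 and 12.8 CPM at low boron, 6.42 and 5.53 in Ctrl and 0.770 and 3.14 at high boron. Both high-boron libraries were below all others but differed 4-fold from each other, and the log2 difference of -2.65 ± 0.33, adjusted p = 1.59e-05 was -4.04 without high-boron library 3. RGXT2 (AT4G01750) stood at 29.0 and 29.8 CPM at low boron, 19.1 and 23.9 in Ctrl and 12.2 and 16.7 at high boron, falling with supply with no overlap (-1.01 ± 0.16, adjusted p = 0.000109). RHM1 (AT1G78570), which makes UDP-rhamnose, a building block of pectin, was -0.97 ± 0.09. Further members called lower were UGD3 (-0.59 ± 0.09) and UGD2 (-0.46 ± 0.09), which make UDP-glucuronate, MUR1 (-0.52 ± 0.12), which makes the GDP-fucose used for RG-II, and the pectin methyltransferase gene TSD2 (-0.42 ± 0.09). The MUR1 call was lost without low-boron library 2 (-0.34, adjusted p = 0.0644). The single higher member was GAUT1 (AT3G61130), the galacturonosyltransferase of the homogalacturonan backbone, at 0.44 ± 0.08, adjusted p = 0.000386. The RGXT genes are close copies of each other, and how shared reads were assigned is not known.

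Cellulose synthesis genes were called about as often as all genes tested (42.4%). Of 11 tested, 3 were higher (CESA4, IRX1 and IRX3, the synthases of secondary walls, 0.43 to 0.63) and 2 lower, with GH9A1 at -0.43 ± 0.09. The 3 rises fell to 1 without low-boron library 3 or high-boron library 2 and to 0 without high-boron library 3 and with DESeq2. GH9A1, a membrane-bound cellulase, stood at -0.28 without high-boron library 2. The 2 falls became 1 without either low-boron library or high-boron library 2 and with DESeq2, and 4 without high-boron library 3.

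Enzymes that remodel xyloglucan split in direction. Of 22 XTH genes (xyloglucan endotransglucosylase/hydrolases) 10 were lower and 6 higher at high boron, and the 6 became 3 without low-boron library 2. XTH18 (AT4G30280) stood at 78.5 and 79.7 CPM at low boron, 5.98 and 14.9 in Ctrl and 5.01 and 6.93 at high boron, and the low-boron pair was far above the other 4 libraries (-3.71 ± 0.25, adjusted p = 2.49e-08). XTH25 (AT5G57550) was -2.52 ± 0.22, XTH10 (AT2G14620) -1.83 ± 0.32, and TCH4 (AT5G57560), a gene known for its response to touch, -1.22 ± 0.13. In the other direction XTH15 (AT4G14130) was 1.05 ± 0.12, adjusted p = 5.54e-06 and XTH8 0.89 ± 0.15. XTH18 shares near-identical sequence with XTH19 (-1.10 ± 0.26), which was not called when low-boron library 2 was left out (adjusted p = 0.0736).

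Alpha-expansins, proteins that loosen walls during growth, were called in 1 direction only: 5 of 11 were higher and 0 lower. The 5 became 3 without low-boron library 3 or high-boron library 3, and 2 with DESeq2. EXPA8 (AT2G40610) had 5.66 and 4.05 CPM at low boron, 15.2 and 16.0 in Ctrl and 19.0 and 23.7 at high boron. Its low-boron libraries were the lowest of the 6 (2.14 ± 0.19, adjusted p = 5.88e-07). EXPA5 (AT3G29030) followed at 0.61 ± 0.14, adjusted p = 0.00277.

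Receptor kinases of the wall were called in both directions. The 3 tested wall-associated kinases, which bind pectin and its fragments, were lower, and WAK4 and WAK5, with 0 to 4 counts per library, were not tested. WAK1 (AT1G21250) stood at 567 and 574 CPM at low boron, 269 and 226 in Ctrl and 73.7 and 118 at high boron. Each group lay below the one with less boron (-2.57 ± 0.16, adjusted p = 9.72e-09). WAK3 (-2.80 ± 0.18) and WAK2 (-1.19 ± 0.13) were lower as well. Of the CrRLK1L kinases, which monitor wall integrity, FER was slightly lower (-0.45 ± 0.09), whereas THE1 (0.56 ± 0.09), HERK1 (0.37 ± 0.09) and HERK2 (0.65 ± 0.12) were higher. FEI1 (0.37 ± 0.09) and FEI2 (0.53 ± 0.10), kinases linked to cellulose synthesis, were higher too, so that of 9 tested members 5 were higher and 4 lower. HERK1 was lost without low-boron library 2 (adjusted p = 0.066), and FEI1 without low-boron library 3 (0.0651) or high-boron library 3 (0.0523).

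Auxin-induced growth genes were higher at high boron. Of 13 tested genes of the growth-promoting SAUR list 12 were higher, 11 of them at least 2-fold, and the median log2 difference was 1.61. SAUR genes encode small proteins that promote cell expansion. SAUR16 (AT4G38860) had 13.5 and 14.1 CPM at low boron, 18.5 and 12 in Ctrl and 37.7 and 35.2 at high boron. The high-boron pair stood apart from the other 4 libraries (1.4 ± 0.16, adjusted p = 7.35e-06). SAUR21 (AT5G18030) rested on fewer counts, with 0.566 and 0.596 CPM at low boron, 2.1 and 1.5 in Ctrl and 4.62 and 4.11 at high boron (2.88 ± 0.42, adjusted p = 6.78e-05). SAUR68 (AT1G29510) had the largest difference of the list (3.60 ± 0.59, adjusted p = 0.000189) on 1 and 4 counts in the low-boron libraries and 38 and 24 in the high-boron ones. The exception was SAUR9 (AT4G36110), at -1.76 ± 0.61, adjusted p = 0.0321, not called by DESeq2 or when any 1 of the low-boron or high-boron libraries was left out (adjusted p = 0.0664 to 0.217). Several SAUR genes are near-identical copies, and their single values are uncertain.

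Of 19 tested Aux/IAA genes, the auxin-inducible repressors of auxin signalling, 8 were higher and 1 lower, and the 8 became 5 without low-boron library 3 and the 1 became 3 without either Ctrl library. IAA14 (AT4G14550) stood at 1.92 and 1.67 CPM at low boron, 4.09 and 3.46 in Ctrl and 5.91 and 6.39 at high boron (1.77 ± 0.30, adjusted p = 0.000223), and all high-boron values were above all others. SHY2 (AT1G04240), also known as IAA3, was 1.07 ± 0.17. Among 23 cell cycle and replication genes 5 were higher and 0 lower, a share of rises near the 19.3% of all genes tested. They were led by D-type cyclins, which start the cell cycle: CYCD1;1 (AT1G70210) at 1.16 ± 0.13, adjusted p = 4.12e-06, CYCD3;2 (AT5G67260) at 0.90 ± 0.09 and CYCD3;1 (AT4G34160) at 0.63 ± 0.12. The 5 became 3 without any 1 of the low-boron or high-boron libraries except high-boron library 2 and with DESeq2, and 8 without either Ctrl library.

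**Figure D2:**
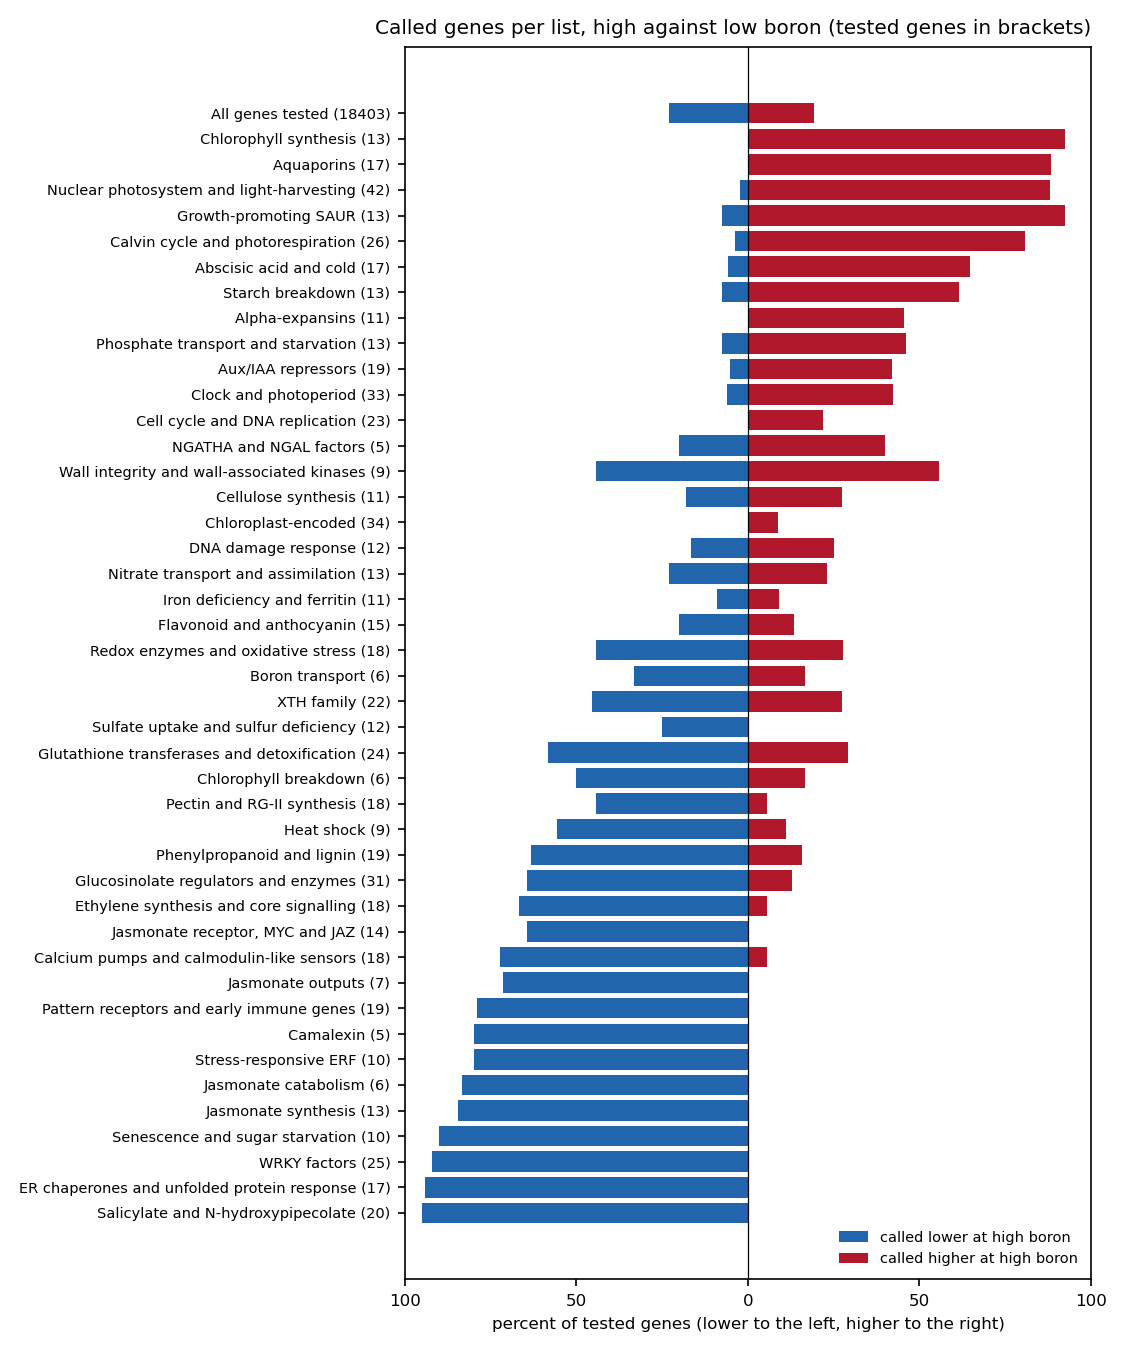
Bars give the percent of tested genes called lower (to the left) and higher (to the right) at high boron. Each list with at least 5 tested genes is drawn, except the marker lists of cell types and flowers. The number tested is in brackets, and all 18403 genes are at the top. Lists of chlorophyll synthesis, aquaporins and photosystems lie to the right, and those of salicylate, the unfolded protein response and WRKY factors to the left.

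Immune genes were lower at high boron in most members of their lists. Salicylate is the hormone of defence against biotrophic pathogens, and N-hydroxypipecolate is the mobile signal of systemic acquired resistance. Of the 20 genes of this list 19 were lower at high boron and 0 higher, 17 of them at least 2-fold, with a median log2 difference of -3.14. FMO1 (AT1G19250), which makes N-hydroxypipecolate, had 52.3 and 55.5 CPM at low boron, 6.31 and 6.0 in Ctrl and 1.93 and 1.41 at high boron. The groups were fully separated and ordered by supply (-5.02 ± 0.18, adjusted p = 6.27e-11). DMR6 (AT5G24530), a salicylate hydroxylase, had 375 and 425 CPM at low boron, 91.3 and 53.1 in Ctrl and 11.7 and 17.1 at high boron (-4.78 ± 0.21, adjusted p = 4.6e-10), in the same order. UGT76B1 (AT3G11340), which glucosylates both signals, was -4.00 ± 0.20.

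The synthesis and regulatory steps were lower as well. ALD1, the first enzyme of the pipecolate pathway, was -3.13 ± 0.46 (-5.85 without high-boron library 3), EDS16, the isochorismate synthase of salicylate, -2.44 ± 0.14, and PBS3, which acts after it, -3.37 ± 0.20. The regulators SARD1 (-3.62 ± 0.13) and CBP60G (-3.31 ± 0.13), the signalling partners EDS1 (-2.5 ± 0.12) and PAD4 (-2.74 ± 0.12) and the salicylate receptor NPR1 (-1.26 ± 0.09) were lower. Of the pathogenesis-related genes BGL2, a glucanase, was -3.80 ± 0.24 and PR5 -2.07 ± 0.12. The widely used marker PR1 (AT2G14610) was the only member not called: it had 349 and 360.4 CPM at low boron, 469 and 228 in Ctrl and 317 and 85.5 at high boron (-0.83 ± 0.40, adjusted p = 0.109). The high-boron libraries differed from each other more than the low-boron ones. Without high-boron library 2 PR1 was called, at -2.03 (adjusted p = 0.000233), and without high-boron library 3 it was not, at -0.16 (adjusted p = 0.68). It was also called, at -0.82 to -1.12, without either Ctrl library, with no filter on low counts, in a fit of low and high boron alone and with limma voom (adjusted p = 3.19e-06 to 0.0355), so its call depended on the fit.

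Pattern receptors and early immune genes gave 15 lower and 0 higher of 19 tested. RLP23 (AT2G32680), a receptor for a microbial peptide, had 96.6 and 115 CPM at low boron, 17.0 and 13.0 in Ctrl and 3.85 and 2.82 at high boron (-5.00 ± 0.17, adjusted p = 4.47e-11). SOBIR1 (AT2G31880), its adaptor kinase, had 356 and 367 CPM at low boron, 111 and 107 in Ctrl and 36.1 and 53.9 at high boron (-3.0 ± 0.13, adjusted p = 3.41e-10). In both genes the 3 groups were ordered by supply without overlap. PROPEP2, the precursor of a danger peptide, had 12 and 13 counts at low boron and 0 in both high-boron libraries, and was at least 8.07-fold lower, taking a floor of 3 counts over the group.

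The WRKY list held a chosen part of that family of transcription factors, not all of it. Of its 25 tested members 23 were lower and 0 higher, 21 at least 2-fold. WRKY46 (AT2G46400) had 91.6 and 102 CPM at low boron, 9.41 and 7.96 in Ctrl and 4.62 and 6.82 at high boron (-4.06 ± 0.15, adjusted p = 6.61e-11), with Ctrl near the high-boron pair. WRKY51 was -3.89 ± 0.40. Of 5 camalexin genes, enzymes and regulators for the main indole phytoalexin of the species, 4 were lower. The regulators were WRKY33, also a member of the WRKY list, and NAC042. PAD3 (AT3G26830), which catalyses the last step, had 74.1 and 63.0 CPM at low boron, 16.0 and 19.8 in Ctrl and 4.37 and 6.50 at high boron (-3.64 ± 0.17, adjusted p = 6.52e-10). All Ctrl values lay between those of the other groups.

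Genes of jasmonate, the hormone of wounding and herbivory, were lower along the pathway. In synthesis 11 of 13 tested genes were lower and 0 higher. AOC3 (AT3G25780), an allene oxide cyclase, had 38.2 and 38.4 CPM at low boron, 5.31 and 8.07 in Ctrl and 4.11 and 4.55 at high boron (-3.14 ± 0.18, adjusted p = 5.88e-09). LOX4 (AT1G72520), a lipoxygenase, was -2.31 ± 0.18, and OPR3 (AT2G06050), the reductase that acts on the cyclase product, -1.42 ± 0.09. The low-boron pair was the highest in these 3 genes. AOC genes are near-identical, and their single values are uncertain.

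Of 14 tested receptor, MYC and JAZ genes 9 were lower and 0 higher. JAZ5 (AT1G17380) had 13.2 and 23.2 CPM at low boron, 1.55 and 2.19 in Ctrl and 1.41 and 1.19 at high boron (-3.80 ± 0.34, adjusted p = 5.42e-07), and JAZ10 (AT5G13220) was -2.68 ± 0.22. JAZ proteins repress jasmonate responses, and their genes are themselves induced by the hormone. In jasmonate catabolism 5 of 6 were lower, among them CYP94C1 (AT2G27690), which oxidises jasmonoyl-isoleucine, at -2.82 ± 0.31, and the sulfotransferase gene ST2A at -2.01 ± 0.42. Of 7 output genes 5 were lower. TAT3 (AT2G24850), a tyrosine aminotransferase, had 268 and 263 CPM at low boron, 5.42 and 14.4 in Ctrl and 7.45 and 2.38 at high boron. The libraries of Ctrl and of high boron overlapped, and both groups lay far below low boron (-5.81 ± 0.29, adjusted p = 1.43e-09). NATA1 (AT2G39030), which acetylates ornithine, was -5.58 ± 0.43.

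The unfolded protein response, by which cells enlarge the folding capacity of the endoplasmic reticulum, was lower in 16 of 17 genes and higher in 0. Of these 13 were at least 2-fold lower and the median log2 difference was -1.16. The count of 16 was the same when any 1 library was left out and with DESeq2. BIP3 (AT1G09080), the stress-inducible member of the lumenal HSP70 chaperones, had 33.4 and 31.1 CPM at low boron, 6.09 and 4.38 in Ctrl and 1.8 and 1.73 at high boron (-4.18 ± 0.21, adjusted p = 1.4e-09). The constitutive BIP2 (-1.59 ± 0.08) and BIP1 (-1.11 ± 0.08), near-identical to each other, were lower too. ATERDJ3A (AT3G08970), a J-domain partner of BiP, was -2.35 ± 0.21, and PDIL2-2 (AT1G04980), a disulfide isomerase, -2.04 ± 0.11. The transcription factor genes BZIP60 (-1.13 ± 0.09) and BZIP28 (-0.89 ± 0.09) and the calnexin gene CNX1 (-1.16 ± 0.09) were also lower. NAC103 (-0.07 ± 0.34) was not called. Of 9 tested heat shock genes, which encode chaperones of several compartments and their regulators, 5 were lower and 1 higher. HSP90.1 (AT5G52640) was -1.58 ± 0.12, adjusted p = 9.13e-08, and the 5 became 2 without low-boron library 2 or high-boron library 3 and with DESeq2 and 3 without high-boron library 2. The rise, that of HSP18.2 (0.90 ± 0.22), was lost without low-boron library 2.

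Most tested calcium, ethylene and ERF genes were lower too. Of 18 calcium pumps and calmodulin-like sensors 13 were lower and 1 higher (2 without Ctrl library 3 or high-boron library 2). CML41 (AT3G50770) had 67.1 and 69.0 CPM at low boron, 6.64 and 7.49 in Ctrl and 3.34 and 2.71 at high boron (-4.50 ± 0.15, adjusted p = 4.47e-11). TCH3 (AT2G41100), a touch-induced calmodulin-like gene, had 843 and 899.6 CPM at low boron, 242 and 287 in Ctrl and 95.5 and 147 at high boron (-2.84 ± 0.15, adjusted p = 2.31e-09). Both were lowest in the high-boron pair. In ethylene synthesis and core signalling 12 of 18 were lower and 1 higher (0 without low-boron library 2), among them the receptor gene ERS2 (AT1G04310) at -1.24 ± 0.16. Stress-responsive ERF factors gave 8 lower of 10 and 0 higher, with ERF-1 (AT4G17500) at -2.16 ± 0.20, adjusted p = 7.8e-07 and ERF11 (AT1G28370) at -2.16 ± 0.26. The 8 became 5 without high-boron library 2 and 4 with DESeq2. Redox genes were split: of 18 tested 8 were lower and 5 higher, beside 23.1% and 19.3% of all genes tested. Their median log2 difference was -0.11. RBOHD (AT5G47910), the NADPH oxidase of the immune oxidative burst, had 99.6 and 108 CPM at low boron, 55.8 and 71.1 in Ctrl and 39.3 and 44.6 at high boron (-1.3 ± 0.11, adjusted p = 4.01e-07). BAP1, known for restraining cell death, was -2.91 ± 0.27.

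Glutathione transferases and other detoxification genes split into 14 lower and 7 higher of 24 tested. GSTF2 (AT4G02520) had 1631 and 1750.2 CPM at low boron, 352 and 379 in Ctrl and 115 and 120.2 at high boron. It was 14.4-fold lower at high boron (-3.85 ± 0.09, adjusted p = 2.86e-12), with Ctrl between the other groups. GSTU4 (-3.63 ± 0.22), GSTU11 (-3.05 ± 0.55), GSTF6 (-2.98 ± 0.11) and GSTF7 (-2.82 ± 0.09) followed. GSTF2 resembles GSTF3, and GSTF6 resembles GSTF7, so single values are uncertain.

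The 7 detoxification genes that were higher were led by UGT74E2 (AT1G05680), a glucosyltransferase of the auxin precursor indole-3-butyric acid. It had 1.24 and 0.238 CPM at low boron, 1.66 and 0.576 in Ctrl and 8.35 and 5.63 at high boron, and the difference of 3.18 ± 0.50, adjusted p = 0.000129 was 4.78 without low-boron library 2. GSTU1 (AT2G29490) had 4.07 and 3.34 CPM at low boron, 3.32 and 3.11 in Ctrl and 14.5 and 10.3 at high boron (1.73 ± 0.24, adjusted p = 4.64e-05). GSTU24 (AT1G17170) had 2.94 and 3.93 CPM at low boron, 4.2 and 1.84 in Ctrl and 10.4 and 8.99 at high boron (1.49 ± 0.30, adjusted p = 0.000975). In GSTU1 and GSTU24 the Ctrl values were close to those of low boron, and the high-boron pair stood apart. OPR2 (0.83 ± 0.14), GSTU7 (0.47 ± 0.13), GSTU19 (0.32 ± 0.08) and OPR1 (0.28 ± 0.10) were smaller rises. GSTU7 and OPR1 were lost without low-boron library 3 or high-boron library 3 and with DESeq2, and GSTU19 without low-boron library 3 (adjusted p = 0.062). OPR1 ranged from 0.13 to 0.44 as 1 library was left out. The count of 7 was 4 without low-boron library 3 and 5 with DESeq2, and the count of 14 was 9 without low-boron library 2 and with DESeq2.

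Photosynthesis genes were higher at high boron by small amounts. Of 42 nuclear photosystem and light-harvesting genes 37 were higher and 1 lower, with a median log2 difference of 0.60, and 2 were at least 2-fold higher. LHCB2.3 (AT3G27690), a light-harvesting protein of photosystem II, had 114 and 88.2 CPM at low boron, 146 and 163 in Ctrl and 357 and 355 at high boron (1.81 ± 0.11, adjusted p = 7.16e-09). LHCB4.2 (AT3G08940), a minor antenna protein, had 877 and 789.6 CPM at low boron, 1106 and 1277 in Ctrl and 1632 and 1717 at high boron (1.01 ± 0.09, adjusted p = 5.76e-07). LHCB2.1 (AT2G05100) had 674 and 566 CPM at low boron, 512 and 563 in Ctrl and 1185 and 1274 at high boron (0.99 ± 0.09, adjusted p = 1.03e-06). The high-boron pair was the highest in all 3 genes, while Ctrl lay above low boron in LHCB2.3 and LHCB4.2 and below it in LHCB2.1. LHCB2 copies are near-identical. The single lower member was the plastocyanin gene PETE1 (-0.30 ± 0.08, adjusted p = 0.00820), and it was not called when either low-boron library was left out (adjusted p = 0.0762 and 0.0532). In bulk shoots, more cells of a kind and more RNA per cell cannot be told apart.

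Of 26 Calvin cycle and photorespiration genes 21 were higher and 1 lower, with a median log2 difference of 0.43. CA1 (AT3G01500), a carbonic anhydrase, had 711 and 629 CPM at low boron, 1894 and 1330.1 in Ctrl and 1044 and 1333 at high boron (0.83 ± 0.14, adjusted p = 0.000291). HCEF1 (AT3G54050), a fructose bisphosphatase, had 337 and 315 CPM at low boron, 634 and 563 in Ctrl and 534 and 614 at high boron (0.82 ± 0.09, adjusted p = 5e-06), and GDCH (AT2G35370) of the glycine decarboxylase was 0.81 ± 0.09. In CA1 and HCEF1 low boron was the lowest group, and the ranges of Ctrl and high boron overlapped in both. Of 13 chlorophyll synthesis genes 12 were higher and 0 lower. PORA (AT5G54190) was 1.60 ± 0.26, adjusted p = 0.000179 and PCB2 (AT5G18660), a reductase of the pathway, 1.01 ± 0.09, adjusted p = 3.06e-07. In chlorophyll breakdown 3 of 6 were lower and 1 higher, with the pheophytinase gene PPH at -0.60 ± 0.08. The 3 became 1 without low-boron library 3.

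**Figure D3:**
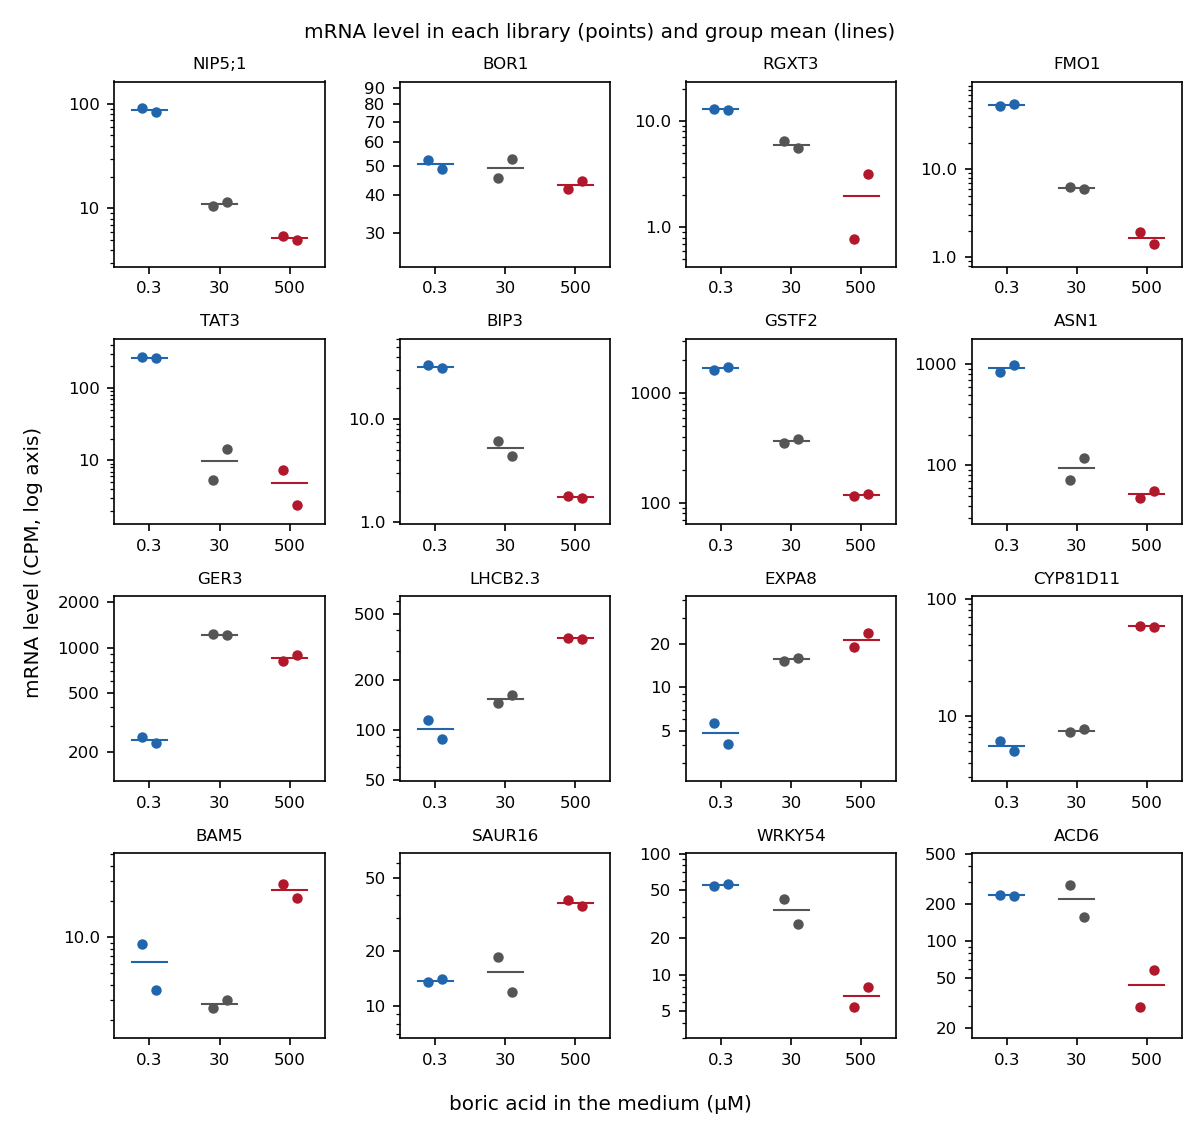
The mRNA level in CPM (log axis) is shown for 16 genes in each library, with points for the 2 libraries of a group, lines for their mean, and boric acid in the medium on the horizontal axis. Ctrl lies between the extremes for NIP5;1, FMO1 and BIP3, near low boron for CYP81D11, SAUR16 and ACD6, and below low boron for BAM5.

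Genes of ageing and sugar starvation were lower. Of 10 senescence and sugar starvation genes 9 were lower and 0 higher. ASN1 (AT3G47340), an asparagine synthetase gene induced in the dark and by sugar starvation, had 829 and 992 CPM at low boron, 71.8 and 117 in Ctrl and 47.5 and 56.0 at high boron (-4.13 ± 0.18, adjusted p = 3.4e-10). SEN1 (AT4G35770) had 165 and 217 CPM at low boron, 22.2 and 50.2 in Ctrl and 19.4 and 24.4 at high boron (-3.12 ± 0.25, adjusted p = 1.57e-07). The low-boron pair was by far the highest in both. Of 13 starch breakdown genes 8 were higher and 1 lower, and the fall was lost without low-boron library 3 or high-boron library 3 and with DESeq2. BAM5 (AT4G15210), a beta-amylase, had 8.71 and 3.58 CPM at low boron, 2.55 and 3.0 in Ctrl and 28.2 and 21.4 at high boron (2.00 ± 0.26, adjusted p = 2.61e-05), and only the high-boron libraries stood apart. DPE1 (AT5G64860), a disproportionating enzyme, had 63.6 and 62.8 CPM at low boron, 128 and 125 in Ctrl and 124 and 127 at high boron (0.99 ± 0.08, adjusted p = 1.75e-07), with low boron alone apart.

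Of 33 clock and photoperiod genes 14 were higher and 2 lower. The list summed to 3375 to 3570 CPM per library at low boron, 5220 to 5408 in Ctrl and 3871 to 3955 at high boron. Its sum was thus highest in Ctrl and did not rise with each step of supply. The 14 became 8 without low-boron library 3 and 10 with DESeq2, and the 2 became 0 without either low-boron library or high-boron library 3 and with DESeq2. CDF1 (AT5G62430), a repressor of flowering, was 1.29 ± 0.23, adjusted p = 0.000438. FT (2.58 ± 0.63) and CO (2.2 ± 0.56), activators of flowering, rested on 0.238 to 4.04 CPM, and both calls were lost without low-boron library 3. CO was 3.43 without low-boron library 2, and FT was lost without high-boron library 3 too. The core clock gene LHY (AT1G01060) was not called (-0.36 ± 0.19, adjusted p = 0.137).

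Abscisic acid and cold genes gave 11 higher and 1 lower of 17 tested, and the 11 became 5 without low-boron library 3 and 7 without low-boron library 2 or with DESeq2. COR15A (AT2G42540), a cold-induced protein that protects membranes, had 2.83 and 1.91 CPM at low boron, 4.76 and 4.61 in Ctrl and 10.9 and 11.8 at high boron (2.25 ± 0.25, adjusted p = 4.36e-06). COR15B (AT2G42530), a close copy, was 1.81 ± 0.17. The phosphatase gene ABI1, a repressor of abscisic acid signalling, was lower (-0.45 ± 0.10). Aquaporins, channels for water, gave 15 higher and 0 lower of 17, and 10 to 16 when 1 library was left out. DELTA-TIP (AT3G16240), of the vacuole membrane, had 279 and 243 CPM at low boron, 425 and 531 in Ctrl and 439.6 and 566 at high boron (0.95 ± 0.12, adjusted p = 2.36e-05). PIP1C (AT1G01620), of the plasma membrane, was 0.87 ± 0.10. The low-boron pair was below all others in DELTA-TIP.

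In secondary metabolism, 20 of 31 glucosinolate genes were lower and 4 higher, with MYB51 (AT1G18570), a regulator of indolic glucosinolates, at -1.81 ± 0.11, adjusted p = 6.96e-09 and CYP83B1 (AT4G31500) of their core pathway at -1.32 ± 0.09. The 20 became 13 without low-boron library 3 or high-boron library 2. Of 19 phenylpropanoid genes 12 were lower and 3 higher. PAL1 (AT2G37040), the entry enzyme, had 237 and 244 CPM at low boron, 72.5 and 70.1 in Ctrl and 76.3 and 79.6 at high boron (-1.63 ± 0.08, adjusted p = 9.72e-10), and Ctrl lay with high boron. Of 15 flavonoid genes 3 were lower and 2 higher, neither above the shares of all genes tested (23.1% and 19.3%). The anthocyanin enzyme gene LDOX was -1.21 ± 0.20. The 2 rises became 0 without low-boron library 2 and 1 without low-boron or high-boron library 3.

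Mineral nutrient genes differed in places. NRT1.8 (AT4G21680), a nitrate transporter that retrieves nitrate from the xylem, had 163 and 189.8 CPM at low boron, 61.3 and 68.9 in Ctrl and 51.2 and 62.9 at high boron (-1.62 ± 0.11, adjusted p = 2.79e-08), while in the nitrate list 3 of 13 were higher and 3 lower (5 lower without either Ctrl library), both near the shares of all genes tested. NIR1 (AT2G15620), nitrite reductase, was 0.60 ± 0.08. In the phosphate list 6 of 13 were higher and 1 lower. The galactolipid synthase genes MGDC (AT2G11810) (2.00 ± 0.29) and MGD2 (AT5G20410) (1.31 ± 0.20), known from phosphate starvation, were higher, whereas the phosphate transporter gene PHT1;1 (AT5G43350) was lower (-1.12 ± 0.25). The 6 became 2 without low-boron library 3 and 3 without low-boron library 2 or high-boron library 3 and with DESeq2. Sulfur genes gave 3 lower and 0 higher of 12, near the 23.1% of all genes that were lower, led by GGCT2;1 (-1.10 ± 0.15). Iron genes gave 1 higher and 1 lower of 11, FRO2 and OPT3, and both calls were lost without either low-boron library and with DESeq2. Without either Ctrl library 2 were higher and 1 lower, and without high-boron library 3, 3 were higher and 0 lower. In the DNA damage list 3 were higher and 2 lower of 12, both near the shares of all genes tested (19.3% and 23.1%). SOG1 (AT1G25580), the master regulator of that response in plants, was -0.76 ± 0.14, adjusted p = 0.000648. The 3 became 0 without low-boron library 3 and with DESeq2 and 1 without low-boron library 2 or high-boron library 3, and the 2 became 1 without low-boron library 2 or either high-boron library and with DESeq2. Of the NGATHA and NGAL factors, regulators of leaf margin and fruit shape, ABS2 (AT2G36080) was lower (-1.68 ± 0.13, adjusted p = 1.65e-07). NGA1 was higher (0.88 ± 0.18).

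Markers of shoot cell types were compared as lists. All 5 epidermis markers were higher at high boron, with summed levels of 634 to 701 CPM at low and 907 to 985 at high boron. ATML1 (AT4G21750), a regulator of epidermal identity, was 0.74 ± 0.09, adjusted p = 8.43e-06. All 5 guard cell markers were higher as well, summing to 59.8 to 63.5 CPM at low and 101 to 116 at high boron, and 3 of 5 without low-boron library 2 or with DESeq2. KAT1 (AT5G46240), the potassium channel of guard cells, had 13.8 and 12.5 CPM at low boron, 21.0 and 18.0 in Ctrl and 35.9 and 27.4 at high boron (1.26 ± 0.16, adjusted p = 1.38e-05). Of 6 meristem markers 1 was higher, CLV1 (AT1G75820) at 0.99 ± 0.10, adjusted p = 2.4e-06, and their sum was 61.0 to 69.2 CPM at low, 124 to 127 in Ctrl and 106 to 112 at high boron. Of 4 mesophyll markers 1 was higher, and their sum was 21635 to 21703 CPM at low and 23689 to 25004 at high boron. Of 4 phloem companion cell markers 1 was higher, FTIP1, which DESeq2 did not call. In the meristem, mesophyll and phloem lists the share of rises was near the 19.3% of all genes tested, and the other members were not called. Of 6 xylem markers 4 were higher, and 1 without low-boron library 3 or high-boron library 2, 2 without high-boron library 3 and 0 with DESeq2. The xylem markers CESA4, IRX3 and IRX1 are the rises of the cellulose list above, and the 4 mesophyll markers are members of the photosynthesis lists. These marker counts are thus not separate from those lists. The part of cell composition in the gene groups above was not tested.

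The largest differences at a mean level of at least 1 in log2 CPM, with both high-boron libraries outside the low-boron range, were falls. AIG1 (AT1G33960), a GTPase gene known for its induction by an avirulent bacterium, had 232 and 279 CPM at low boron, 11.5 and 10.6 in Ctrl and 2.18 and 4.01 at high boron (-6.33 ± 0.17, adjusted p = 4.96e-12). MDHAR (AT3G09940), a monodehydroascorbate reductase, had 80.7 and 102 CPM at low boron, 10.1 and 12.1 in Ctrl and 1.8 and 1.52 at high boron (-5.78 ± 0.19, adjusted p = 4.47e-11). GAT1_2.1 (AT1G15040), a glutamine amidotransferase-like gene, was -5.74 ± 0.36. AT1G33950 had 45 and 46 counts at low boron and 0 in both high-boron libraries, and was at least 29.4-fold lower with a floor of 3 counts over the group. AT2G38240, AT1G57650, AT5G52720, AT3G60470 and the ERF gene RAP2.6 had 0 to 3 counts in each high-boron library, too few for a fold.

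The largest rise among these genes was that of AT3G55710, with 0.679 and 1.07 CPM at low boron, 6.31 and 4.84 in Ctrl and 9.76 and 12.5 at high boron (3.66 ± 0.33, adjusted p = 5.01e-07). CYP81D11 (AT3G28740), a cytochrome P450 gene known to respond to foreign chemicals, had 6.11 and 5.01 CPM at low boron, 7.30 and 7.72 in Ctrl and 58.5 and 57.6 at high boron (3.38 ± 0.14, adjusted p = 2.38e-10). The high-boron libraries stood far above all the others. KDR (AT1G26945), a small helix-loop-helix protein that promotes elongation, was 2.59 ± 0.46, and GSO1 (AT4G20140), a receptor kinase of barrier formation, 2.5 ± 0.33. TPS03, a terpene synthase gene, had 0 counts in both low-boron libraries and 32 and 50 at high boron, and was at least 28.2-fold higher; it lay under the level minimum and was chosen after its values were seen.

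Among genes at a mean level of at least 8 in log2 CPM, the largest rise was that of GER3 (AT5G20630), a germin-like protein of the cell wall, with 254 and 231 CPM at low boron, 1227 and 1216 in Ctrl and 812 and 896 at high boron (1.81 ± 0.09, adjusted p = 7.83e-10). Ctrl was the highest group and low boron the lowest. FBA5 (AT4G26530), a fructose-bisphosphate aldolase, had 210.3 and 214 CPM at low boron, 576 and 527 in Ctrl and 532 and 589 at high boron (1.4 ± 0.08, adjusted p = 8.87e-09), with the Ctrl and high-boron ranges overlapping. AT2G10940 was 1.38 ± 0.11 and AT5G35170 1.02 ± 0.09. The falls were led by ASN1 and GSTF2, described above. BCB (AT5G20230), a blue copper-binding protein, had 807 and 876 CPM at low boron, 101 and 135 in Ctrl and 57.1 and 75.6 at high boron (-3.66 ± 0.14, adjusted p = 1.21e-10). The low-boron pair lay far above both other groups. AT1G35710 (-3.78 ± 0.17), HR4, a homolog of the mildew resistance genes RPW8 (-3.36 ± 0.11), and EXT4, an extensin of the wall (-3.22 ± 0.16), were lower too.

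The place of Ctrl between the extremes was described for the called genes as a position, 0 where the Ctrl mean of log2(CPM + 0.25) equalled that of low boron and 1 where it equalled that of high boron. The position shares the low-boron and high-boron libraries with the contrast that chose the genes, and is given without a test. The median position was 0.61 for the 631 genes at least 2-fold higher and 0.70 for the 1403 at least 2-fold lower. Ctrl was nearer the high-boron level or beyond it in 58.8% and 8.24% of the former and in 70.3% and 10.2% of the latter. Ctrl was beyond the low-boron level in 4.6% and 0.713%.

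**Figure D4:**
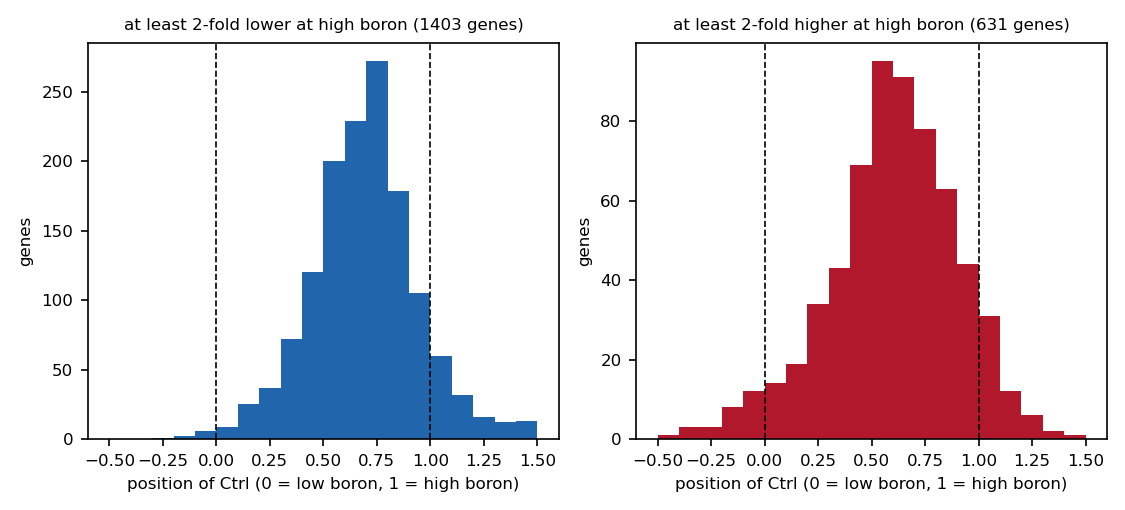
Histograms of the position of Ctrl (horizontal axis, 0 at the low-boron and 1 at the high-boron mean of log2(CPM + 0.25), dashed lines) for the genes at least 2-fold lower (left) and higher (right) at high boron, with the number of genes on the vertical axis. Both peak between 0.5 and 0.8, and 13 and 2 genes outside the axis are not drawn.

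Some genes had Ctrl near the low-boron level or beyond it. The 6 largest rises and falls with a position under 0.25 and a mean level of at least 3 in log2 CPM were picked after their values had been seen. The rises included CYP81D11 and BAM5, and in BAM5 both Ctrl libraries lay below both low-boron ones. AT3G21670 had 5.77 and 6.44 CPM at low boron, 5.86 and 6.11 in Ctrl and 25.8 and 24.0 at high boron (2.03 ± 0.16, adjusted p = 1.6e-07). The sugar transporter gene SWEET10 (AT5G50790) had 11.7 and 14.3 CPM at low boron, 14.3 and 11.6 in Ctrl and 44.9 and 36.7 at high boron (1.65 ± 0.15, adjusted p = 7.03e-07). The log2 difference was 1.85 ± 0.12 for AT4G19430 and 1.56 ± 0.18 for the flowering repressor gene SNZ. In AT3G21670 and SWEET10 the high-boron pair was the highest and the other 4 libraries were close together. Among the falls, WRKY54 (AT2G40750) had 53.7 and 56.0 CPM at low boron, 42.0 and 26.4 in Ctrl and 5.39 and 7.90 at high boron (-3.02 ± 0.21, adjusted p = 3.99e-08). ACD6 (AT4G14400), an ankyrin-repeat protein that promotes cell death and salicylate signalling, had 236 and 232 CPM at low boron, 283 and 157 in Ctrl and 29.5 and 58.4 at high boron (-2.40 ± 0.25, adjusted p = 3.15e-06). The others were PCC1 (-2.41 ± 0.30), cwINV6 (-2.17 ± 0.15), AT3G22235 (-2.87 ± 0.25) and AT5G59670 (-2.09 ± 0.29). In WRKY54 and ACD6 the Ctrl libraries were spread widely, and both high-boron libraries lay below all others.

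The ribosome footprints of the same supplies were separate libraries and give the same contrast a further reading, by whether both high-boron libraries lay above or below both low-boron libraries. Over the 17306 genes tested in mRNA that also passed the count filter in footprints, this was so upward in 31.4% and downward in 29.6%. Of the called mRNA rises with footprints 73% of 3379 were upward and 7.07% downward, and of the called falls 76.4% of 4181 were downward and 1.24% upward. At 2-fold or more the shares were 87.5% of 534 rises and 94.8% of 1350 falls. The footprints of NIP5;1 were 83.8 and 110.9 CPM at low boron and 1.48 and 1.51 in the high-boron libraries. Those of CYP81D11 were 9.35 and 6.33 CPM in the low-boron libraries and 83.2 and 48.4 in the high-boron ones, and those of GSTF2 were 2808 and 4004 CPM in the low-boron libraries and 393 and 641 in the high-boron ones. The direction was that of the mRNA in all 3, and a difference in size between the assays was not tested.

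**Figure D5:**
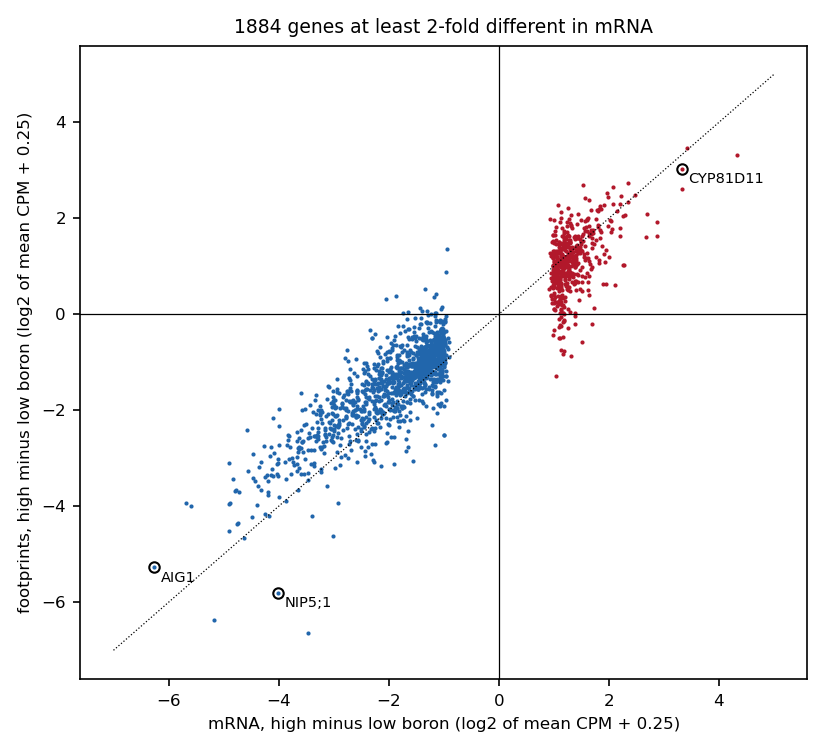
The log2 difference, high minus low boron, of footprints (vertical axis) is plotted against that of mRNA (horizontal axis), both from group means of CPM + 0.25, for 1884 genes at least 2-fold different in mRNA with values in both assays. Most points share the sign of the mRNA difference, and the dotted line marks equal values.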

How the data were processed

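The deposited table held raw read counts over coding sequences, 1 row per gene, as the authors left them per the file headers. Per the submitters' processing notes, Bowtie2 and SAMtools were used. Build, annotation, filters and strand handling are not given in the sources used here. Names came from a RefSeq gene table (assembly TAIR10.1), with a row for 27445 of 27655 gene IDs. The table's columns carry replicate numbers 2 and 3 and were assigned to groups by name.

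The counts were tested as deposited with edgeR 4.0.16 (quasi-likelihood test, TMM scaling, filterByExpr, all 3 RNA groups in 1 fit) in R 4.3.3, with Benjamini-Hochberg adjustment and a threshold of 0.05. The SE was taken as the log2 difference over the root of the F statistic. CPM were computed from the counts. The procedure was tested on simulated data. Alternatives were DESeq2 1.42.0 and its size factors, limma voom (limma 3.58.1), other filters, a 2-group fit, a replicate block, removal of organelle-encoded genes and leaving out each library.

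The rule for naming genes took the 10 largest rises and falls at a mean level of at least 1 in log2 CPM with both high-boron libraries outside the low-boron range, the 6 largest each at a mean level of at least 8, every boron transport gene and up to 3 called genes of each other list. Further list members were picked after their values were seen. The lists and their members were chosen with earlier results of these data known. Outside the boron transport list, 20 planned members with no symbol in the gene table were left out. AT2G38240, planned for jasmonate catabolism and named above among the largest falls, was 1 of them. The labels do not say that equal replicate numbers mark a shared batch, so they were not treated as pairs. Over all genes tested, the deviations of libraries of equal number correlated at r = -0.02 between low and high boron. Whether such libraries shared a batch was not tested. The p-values set each difference against a spread between pooled samples. That spread was estimated from 2 libraries per group, Ctrl included, and in part across genes.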

Additional observations from a re-analysis of the deposited data

How the results depend on the processing

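The 7799 calls were 7752 with DESeq2 size factors in edgeR, 5204 with DESeq2, 7764 with limma voom, 8193 with no filter, 6413 with a strict filter, 8457 in the 2-group fit and 7800 without organelle-encoded genes. With the replicate number as a block the count was 7828. No label says that these numbers pair the libraries, and the block gave 2032 genes at 2-fold or more against 2034. PR1 was called with the block (-1.08, adjusted p = 0.00506). Leaving out each library gave 5344 to 8531 calls, 2239 to 3932 higher, 3105 to 4602 lower, and 1792 to 2129 at 2-fold or more (480 to 675 higher, 1290 to 1454 lower). The 3553 higher calls were 2309 with DESeq2 and 2239 without low-boron library 3. The strict filter (a mean of 50 counts in every group) left 936 genes at 2-fold or more, 255 higher and 681 lower, with fewer genes tested. Of 222 named genes 216 were called, and 179 kept direction and call in all 14 alternatives that gave a value; 122 calls were lost and 7 gained over single alternatives, and 97 combinations gave no value, mostly under the strict filter. NAC103, not called, ranged from -0.38 to 0.30 as single libraries were left out. The planned search for promoter motifs was not run, as no promoter sequence was used here. Depth limits genes of few counts: the median SE was 0.53 under a mean log2 CPM of 1 and 0.08 at 7 or more.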

Other observations

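Of 5 tested genes of the floral transition and flower list 3 were higher at high boron and 1 lower. SEP3 (AT1G24260), a regulator of floral organ identity, had 4.87 and 4.29 CPM at low boron, 7.41 and 4.27 in Ctrl and 11.2 and 11.5 at high boron (1.3 ± 0.25, adjusted p = 0.000604). The high-boron pair lay above the other 4 libraries. The single fall, that of PI (AT5G20240), was lost without any 1 of the low-boron or high-boron libraries. Of 88 chloroplast-encoded genes 34 were tested, 3 were called higher and 0 lower, and the 3 became 0 with DESeq2 or without low-boron library 2. As shares of the 34 tested, both counts of calls were below those of all genes tested (19.3% higher and 23.1% lower). Chloroplast and mitochondrial genes together held 0.0171% to 0.0243% of the RNA counts per library.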
